A study of Mus musculus with 6 samples.

Results

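The genes described here encode the parts of the nuclear pore and the carriers that move protein and RNA through it. They were the rows of the deposited expression table whose mouse symbols begin with Kpna, Kpnb, Tnpo, Xpot, Ranbp1 or Ranbp2, or with Nup, Ipo or Xpo and a digit, together with Ndc1 and Tpr. This gave 48 genes of 12656. All 48 passed the filter on low values, under which 11931 genes were tested. The cells were 4T1, an established mouse line of mammary carcinoma that the labels call triple-negative, a class defined by the lack of oestrogen and progesterone receptors and of excess HER2. Polyadenylated RNA was sequenced from 3 libraries of solvent-treated (DMSO) cells and from 3 libraries of cells exposed for 48 h to LP-184, a drug that damages DNA. The labels name no dose, no exposure time for the DMSO cells and no engineered allele, and 4T1 is a single line. Nothing in them says that replicates were separate cultures, so the p-values speak of the spread among libraries, part of which may be technical. Throughout, a CPM or percent value with ± is a mean and SD over n = 3 libraries, and a log2 fold change with ± carries its standard error.

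The nuclear pore is a ring-shaped channel through the nuclear envelope, built from many copies of proteins called nucleoporins. Outer and inner rings form its scaffold, transmembrane nucleoporins anchor it, and nucleoporins rich in phenylalanine-glycine repeats fill the channel and stop large molecules that travel alone. Importins carry cargo in, exportins carry cargo out, and the small GTPase Ran gives the direction by being bound to GTP in the nucleus and to GDP in the cytoplasm.

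The libraries held 18864368 to 22471753 reads over the genes of the table, and the first principal component, with 91.8% of the variance, separated the LP-184 from the DMSO libraries. Levels are given as CPM, read counts scaled to library size as the authors did, or as its log2. In bulk RNA, fewer cells that express a gene and less of its RNA per cell cannot be told apart. All 7 epithelial markers examined, among them Epcam and Krt18, were in the table, with a summed level of 4740 to 4750 CPM in DMSO and 3305 to 3331 CPM in LP-184. The sum hides opposite moves: mean levels of Epcam (361 to 464 CPM), Cdh1, Krt19 and Cldn7 were higher in LP-184, and those of Krt7 (1926 to 705 CPM), Krt8 and Krt18 were lower. Of 5 leukocyte, 3 endothelial and 4 fibroblast markers the table held Lyz2, at 1.28 to 1.96 CPM in DMSO and at 0 in LP-184, and Pdgfra, at 6.37 to 10.3 CPM over the 6 libraries. Esr1, the oestrogen receptor gene, was at 10.5 CPM on average in DMSO and 0.381 CPM in LP-184, and Erbb2, which encodes HER2, at 41.5 and 30.7 CPM. The part of these shifts in the results below was not tested.

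The nuclear pore and transport genes moved both ways with LP-184, as tested genes in general did. By limma with Benjamini-Hochberg adjustment over all tested genes, 25 of the 48 rose, 18 fell and 5 did not pass an adjusted p of 0.05. The share called was 89.6%, against 78.3% of all genes tested (38.3% higher and 40% lower). These genes drew more reads than most, with a median level of 6.89 log2 CPM against 4.87 for all tested genes, and their fold changes were measured more precisely, with a median standard error of 0.04 against 0.07. The changes were of moderate size. The median absolute log2 fold change was 0.40, against 0.47 for all tested genes, and 4 of the 48 changed by 2-fold or more, against 20.7% of all tested genes (8.08% higher and 12.6% lower). Changes of 1.5-fold or more were rises for 5 genes and falls for 11, against 18.9% and 22.3% of all tested genes (41.2% in either direction). The LP-184 and DMSO libraries did not overlap for 43 of the 48, against 79.1% of all tested genes. The largest falls were those of the import receptor gene Ipo11, the scaffold gene Nup43 and the importin alpha gene Kpna3, and the largest rises those of the import receptor gene Ipo4, the channel gene Nup62 and the import receptor gene Ipo13.

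**Figure D1:**
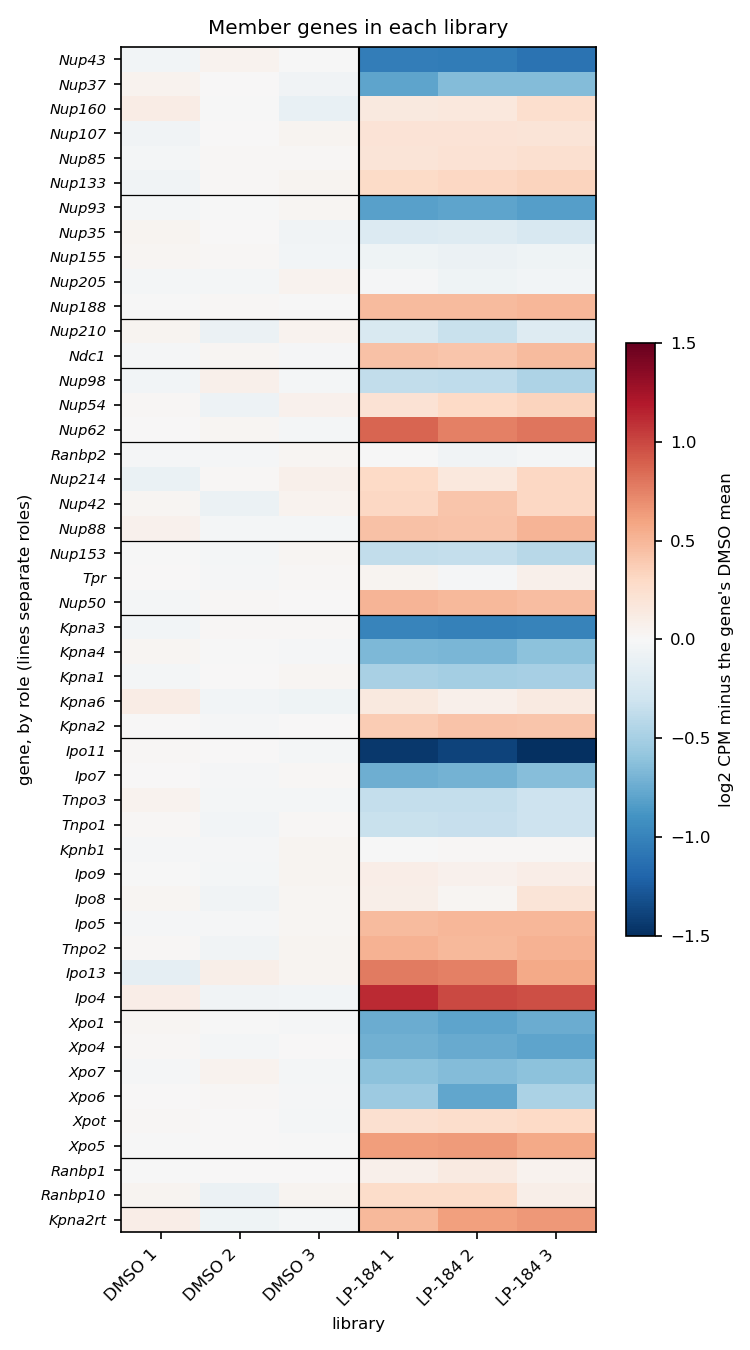
Heat map of the 48 genes (rows, grouped by role) in the 6 libraries (columns). The colour is the log2 CPM minus the mean of that gene in the 3 DMSO libraries, and the 3 LP-184 libraries share their pattern of rises (red) and falls (blue), with Ipo11 lowest and Ipo4 highest.

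The outer ring of the pore is made of Y-shaped complexes. Nup107, Nup133, Nup160 and Nup85 are 4 of its subunits, and Nup43 and Nup37 are 2 small propeller-shaped subunits attached to it. Nup43 and Nup37 fell, and the 4 others rose slightly, against 40% lower and 38.3% higher among all tested genes. Sec13 and Seh1l, subunits of the complex outside the naming rule, had log2 changes of 0.05 ± 0.03 (not called, limma adjusted p = 0.11) and -0.09 ± 0.03. Nup43 was at 113, 121 and 116 CPM in DMSO replicates 1 to 3 and at 56.8, 56.5 and 54.0 CPM in the LP-184 replicates. Every LP-184 library was thus below every DMSO library, and the log2 fold change was -1.06 ± 0.04 (limma adjusted p = 2.5e-22). Nup37 was at 129, 125 and 121 CPM in DMSO and at 72.6, 80.0 and 79.6 CPM in LP-184, again without overlap, and fell by 0.69 ± 0.04 on the log2 scale. Among the subunits that rose, Nup133 changed most, from 107 ± 3.43 CPM to 132 ± 2.05 CPM, a log2 change of 0.31 ± 0.04. Nup85, the most abundant of this group per kb of exon in LP-184, rose by 0.22 ± 0.03, Nup107 by 0.20 ± 0.04 and Nup160 by 0.19 ± 0.05. Fold changes over all genes depended on gene length, as described further on, and with that trend subtracted Nup85 no longer passed (-0.017, limma adjusted p = 0.61). A value with the length trend removed is relative to all genes of like span. Its sign can differ from the direction against DMSO. Nup43 lies on chromosome 10 (7667503 to 7678881, forward strand, GRCm38) and spans 11.4 kb, and Nup37 lies on the same chromosome (88146992 to 88178390, forward strand) and spans 31.4 kb.

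The inner ring joins the scaffold to the membrane and the channel. Its members went different ways. Nup93, the linker that holds the inner ring together, was at 202, 206 and 211 CPM in DMSO and at 117, 119 and 116 CPM in LP-184. It fell 1.76-fold (log2 fold change -0.81 ± 0.03, limma adjusted p = 1.7e-22), with no overlap between groups, but no longer passed with the length trend removed (0.05, limma adjusted p = 0.082). Nup188 and Nup205 are large scaffold proteins of similar build that each bind Nup93. Nup188 rose from 73.5 ± 0.783 to 103 ± 0.936 CPM (log2 fold change 0.48 ± 0.04), whereas Nup205 was at 177 ± 5.20 CPM and 172 ± 2.75 CPM, a log2 change of -0.04 with a 95% interval of -0.11 to 0.02. With the length trend removed Nup205 passed as higher (0.45). Nup35, which touches the membrane, fell by 0.21 ± 0.04. Nup155, another scaffold subunit, did not pass (-0.07 ± 0.03, limma adjusted p = 0.051), and its call depended on the setting, with an adjusted p of 0.00024 to 0.58 over the alternatives and a sign that changed with median centring and with the length trend removed.

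Of the transmembrane nucleoporins, Ndc1, which is needed for pores to be inserted into the envelope, rose from 80.5 ± 1.45 to 109 ± 2.07 CPM, a log2 change of 0.44 ± 0.04. Nup210, a membrane glycoprotein of the pore, was at 22.9 ± 1.23 CPM in DMSO and 19.2 ± 0.993 CPM in LP-184, and fell by 0.25 ± 0.08. That call was lost with median centring (-0.17, limma adjusted p = 0.058) and with quantile normalization (-0.15, limma adjusted p = 0.091), and Nup210 passed as higher with the length trend removed (0.62).

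In the central channel, Nup62 and Nup54 belong to one complex that lines the channel with repeats. Nup62 was at 94.4, 95.5 and 91.8 CPM in DMSO and at 172, 158 and 164 CPM in LP-184. The groups stood well apart, and Nup62 rose 1.75-fold (log2 fold change 0.81 ± 0.04, limma adjusted p = 9.8e-21), the largest rise among the 23 nucleoporin genes of the naming rule. Nup62 shares 97 exon bases with Il4i1 on the same strand and 82 with Atf5 on the opposite strand. Nup54 rose less, by 0.28 ± 0.04, and no longer passed with the length trend removed (0.05, limma adjusted p = 0.29). Nup98, a repeat nucleoporin found on both faces of the pore, fell from 82.6 ± 3.78 to 62.4 ± 2.14 CPM, a log2 change of -0.40 ± 0.04, but passed as higher with the length trend removed (0.33).

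On the cytoplasmic side, 3 of 4 genes rose, against 38.3% of all tested genes. Nup88 and Nup214, which are bound to each other and act in export, rose by 0.46 ± 0.03 and 0.25 ± 0.05 on the log2 scale. Nup42, which works with the export factor Gle1, was at 11.5 ± 0.590 CPM in DMSO and 14.6 ± 0.639 CPM in LP-184, and rose by 0.34 ± 0.10, a call lost with the length trend removed (0.098, limma adjusted p = 0.41). Ranbp2, the largest filament protein and a SUMO ligase, was at 234, 234 and 242 CPM in DMSO and at 236, 228 and 232 CPM in LP-184. These values overlapped, and the log2 fold change of -0.03 had a 95% interval of -0.09 to 0.03. In the nuclear basket, the fibrous structure on the nuclear side, the members again diverged. Nup50, which helps to release cargo from importin alpha, rose from 125 ± 1.83 to 175 ± 3.07 CPM (log2 fold change 0.49 ± 0.03). Nup153, which attaches the basket, fell from 135 ± 2.84 to 104 ± 1.91 CPM (-0.38 ± 0.03), and Tpr, the coiled-coil protein that forms its struts, was at 0.03 with a 95% interval of -0.04 to 0.10. With the length trend removed both Ranbp2 (0.11) and Tpr (0.33) passed as higher. The summed level of the 23 nucleoporin genes was 2657 ± 12.5 CPM in DMSO and 2727 ± 21.3 CPM in LP-184, without overlap. That change was small beside those of single members such as Nup43, Nup62 and Nup93.

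**Figure D2:**
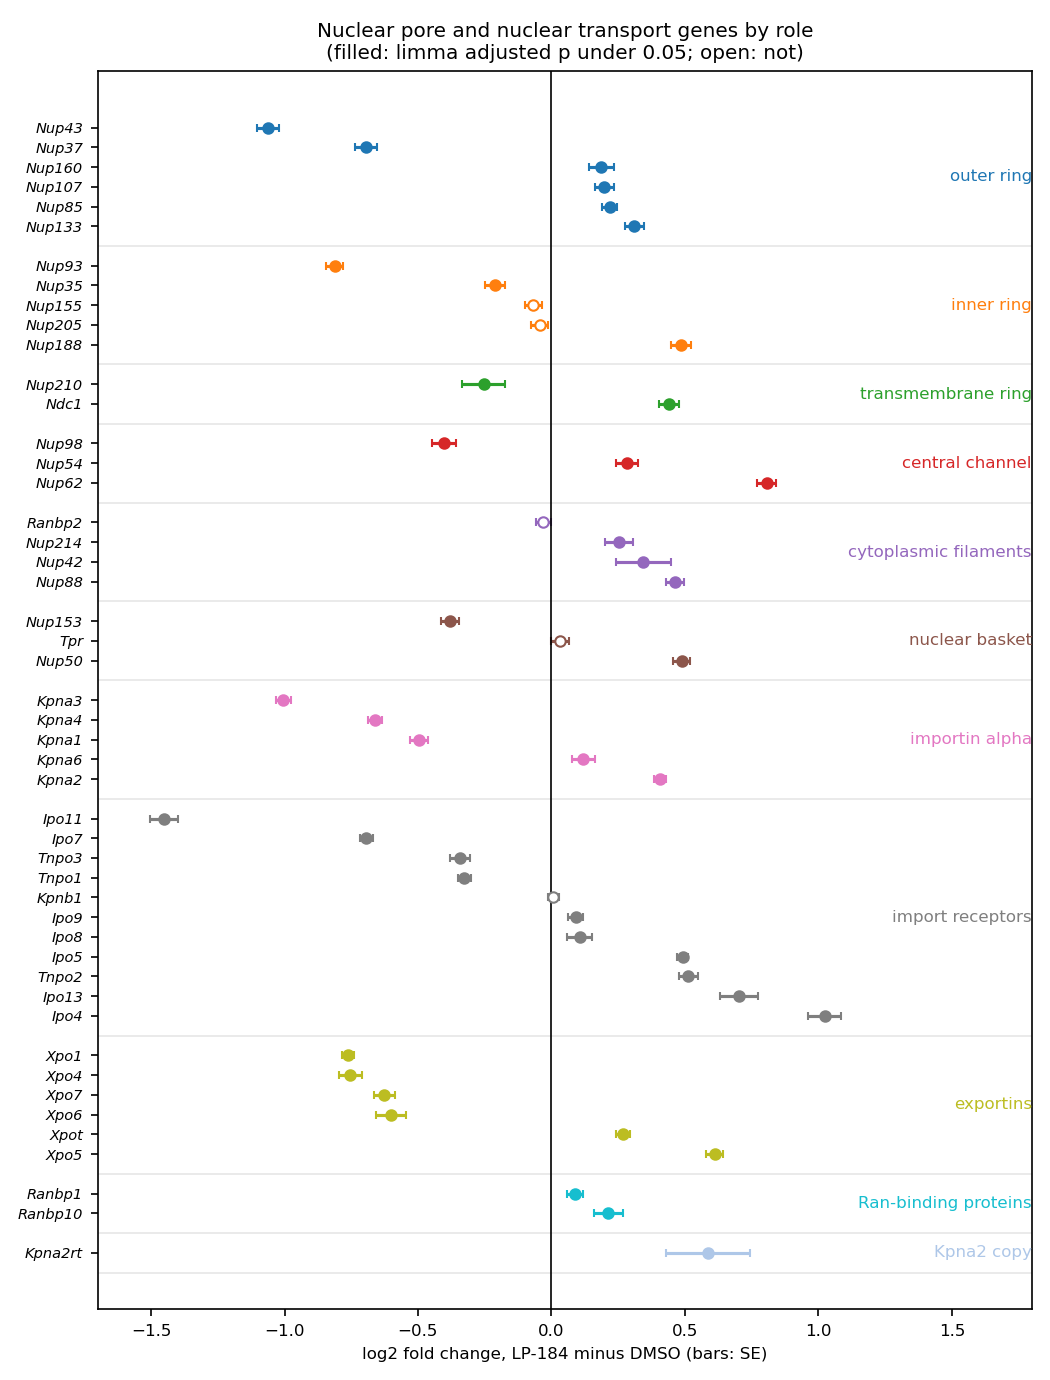
Log2 fold change (LP-184 minus DMSO, x axis) of each of the 48 genes (y axis), grouped and coloured by role, with bars of 1 standard error. Filled points passed limma's adjusted p of 0.05 and open points did not. The outer ring, the importin alpha genes and the exportins each have members on both sides of 0, with Ipo11 at -1.45 and Ipo4 at 1.02 as the extremes.

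Importin alpha proteins are the adaptors that recognise the classical nuclear localization signal and hand the cargo to importin beta. Kpna2 rose while Kpna3, Kpna4 and Kpna1 fell. Kpna2 was at 466, 459 and 467 CPM in DMSO and at 604, 623 and 619 CPM in LP-184, a rise of 1.33-fold (log2 fold change 0.41 ± 0.02, limma adjusted p = 1.2e-18). Kpna3 was at 248, 258 and 257 CPM in DMSO and at 128, 125 and 126 CPM in LP-184, a fall of 2.01-fold (log2 fold change -1.004 ± 0.03, limma adjusted p = 9.4e-26). Neither gene had overlapping groups. Kpna4, of the same subfamily as Kpna3, fell from 358 ± 6.98 to 227 ± 6.70 CPM (-0.66 ± 0.03), and Kpna1 from 143 ± 3.15 CPM to 102 ± 0.658 CPM (-0.50 ± 0.03). With the length trend removed these changes were smaller but still passed: Kpna2 was at 0.08, Kpna3 at -0.45, Kpna4 at -0.31 and Kpna1 at -0.18. Kpna6, of the same subfamily as Kpna1, was at 88.0, 79.3 and 77.7 CPM in DMSO and at 90.1, 85.9 and 89.9 CPM in LP-184. Its groups overlapped, and its call (0.12 ± 0.04, limma adjusted p = 0.014) was lost without DMSO replicate 2 (0.10), without DMSO replicate 3 (0.08), without LP-184 replicate 1 (0.11), with quantile normalization (0.08), without the variance trend and with the length trend removed (0.047).

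Per kb of annotated exon, Kpna2 made up 55.7% ± 0.263 of the summed level of the 5 importin alpha genes in DMSO and 72.8% ± 0.524 in LP-184. Kpna3 went from 20.4% ± 0.489 to 10.0% ± 0.219, and Kpna4 from 13.8% ± 0.251 to 8.62% ± 0.220. The sum of the 5 genes, not corrected for length, went from 1301 ± 6.46 to 1159 ± 11.9 CPM, without overlap. Per kb of exon the sum was 289.7 ± 1.26 CPM in DMSO and 294.1 ± 3.19 CPM in LP-184. The libraries then overlapped narrowly, with DMSO replicate 1 at 290.49 CPM and LP-184 replicate 1 at 290.46 CPM. Whether the total separated the groups thus depended on the measure. Kpna2rt, a retrotransposed relative of Kpna2, was at 4.36 ± 0.270 CPM and 6.60 ± 0.413 CPM and rose by 0.59 ± 0.16 on the log2 scale. Reads of the copy and of Kpna2 cannot be told apart with certainty at the level of the deposited table, so this value is uncertain.

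**Figure D3:**
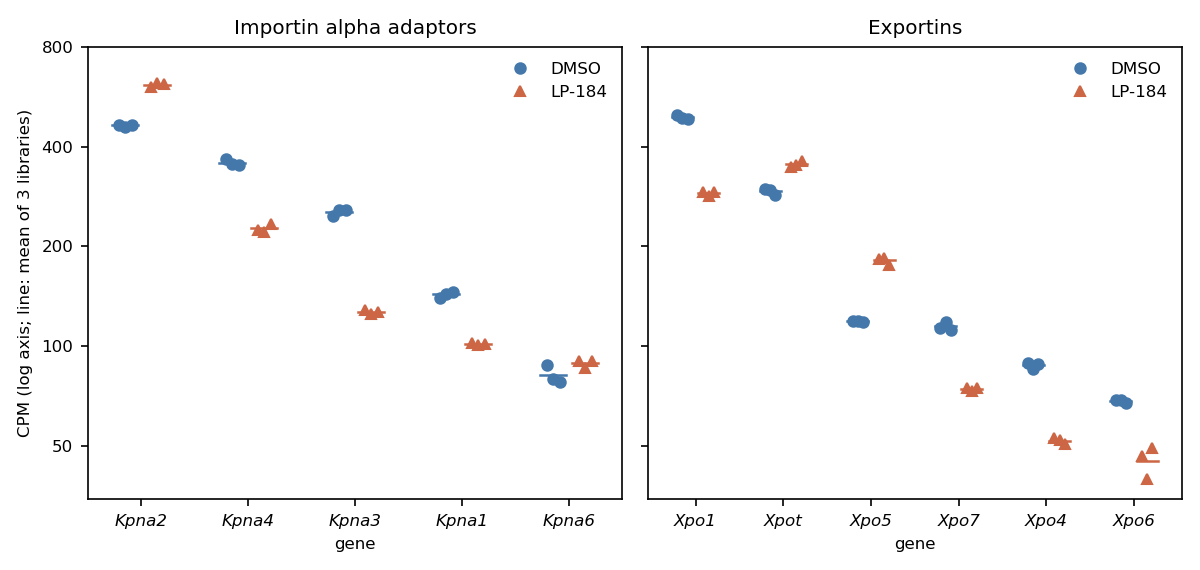
CPM (y axis, log scale) of the 5 importin alpha genes (left) and 6 exportin genes (right) in each library, with circles for DMSO, triangles for LP-184 and a line at the mean of 3 libraries. Kpna2, Xpo5 and Xpot are higher in each LP-184 library than in any DMSO library, Kpna6 overlaps, and the other genes are lower.

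The import receptors of the importin beta family bind the pore and Ran and carry cargo, directly or through importin alpha. 6 of 11 rose, 4 fell and Kpnb1 did not pass, against 38.3% higher and 40% lower among all tested genes. Kpnb1, which encodes importin beta itself, the partner of importin alpha, was at 577, 577 and 601 CPM in DMSO and at 583, 590 and 590 CPM in LP-184. The groups overlapped, and the log2 fold change of 0.01 had a 95% interval of -0.04 to 0.05. Kpnb1 became a rise with median centring (0.09, limma adjusted p = 0.00015) and with quantile normalization (0.08, limma adjusted p = 9.5e-05), the 2 scalings that moved the median gene by 0.09 and 0.08. It passed as lower with the length trend removed (-0.074, limma adjusted p = 0.0032).

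The largest change of all 48 genes was that of Ipo11, an importin known for carrying ubiquitin-conjugating enzymes. Ipo11 was at 77.1, 76.8 and 74.9 CPM in DMSO and at 27.8, 29.0 and 26.7 CPM in LP-184, without overlap. It fell 2.73-fold (log2 fold change -1.45 ± 0.05, limma adjusted p = 4.0e-23), and it is also the longest of the 47 genes with an annotated span (142.5 kb, chromosome 13, 106794439 to 106936958, reverse strand). Ipo4, a carrier of histones H3 and H4, was at 27.8, 25.1 and 25.3 CPM in DMSO and at 56.6, 51.6 and 50.9 CPM in LP-184. It rose 2.03-fold (1.02 ± 0.06, limma adjusted p = 8.2e-17), but 55.3% of its annotated exon bases are shared with the predicted gene Gm49378 on the same strand, which makes its read assignment uncertain. Ipo13, which imports some cargoes and exports others, rose from 25.4 ± 2.12 to 41.4 ± 3.30 CPM (0.70 ± 0.07).

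Ipo5 and Ipo7, carriers of ribosomal proteins among other cargo, moved in opposite directions. Ipo5 was at 464, 461 and 478 CPM in DMSO and at 649, 662 and 662 CPM in LP-184 (log2 fold change 0.49 ± 0.02, limma adjusted p = 6.5e-21). Ipo7 was at 488, 480 and 491 CPM in DMSO and at 292, 298 and 312 CPM in LP-184 (-0.69 ± 0.02, limma adjusted p = 2.6e-23). In each case the 3 LP-184 libraries lay outside the range of the DMSO libraries. The transportins Tnpo1 and Tnpo2, close relatives that import RNA-binding proteins, also diverged. Tnpo1 fell from 359 ± 9.11 to 286 ± 3.79 CPM (-0.33 ± 0.03) and Tnpo2 rose from 97.2 ± 2.99 to 139 ± 1.82 CPM (0.51 ± 0.04). Tnpo3, the carrier of splicing factors of the SR family, fell by 0.34 ± 0.04. Both Tnpo1 (0.37) and Tnpo3 (0.14) passed as higher with the length trend removed. Ipo9, a carrier of histones H2A and H2B, rose by 0.09 ± 0.03, and Ipo8, the closest relative of Ipo7, by 0.11 ± 0.05 (limma adjusted p = 0.036). Without the variance trend Ipo9 no longer passed (limma adjusted p = 0.058). The call for Ipo8 was lost with quantile normalization, without the variance trend and without DMSO replicate 2 (0.08), LP-184 replicate 1 (0.11) or LP-184 replicate 3 (0.06). The summed level of the 11 genes was 2502 ± 42.5 CPM in DMSO and 2468 ± 21.5 CPM in LP-184, with overlapping libraries. Per kb of exon it was 316 ± 5.49 CPM and 336 ± 1.66 CPM, without overlap.

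Exportins carry cargo out together with Ran bound to GTP. 4 of 6 fell and 2, Xpo5 and Xpot, rose, against 40% lower and 38.3% higher among all tested genes. Xpo1, the exportin for proteins with leucine-rich export signals and the most abundant of the group per kb of exon in DMSO, was at 499, 488 and 485 CPM in DMSO and at 292, 283 and 292 CPM in LP-184. It fell 1.70-fold (log2 fold change -0.76 ± 0.02, limma adjusted p = 4.0e-25), with no overlap. Xpo5, the exportin for precursors of microRNAs, was at 119 CPM in each DMSO library and at 183, 185 and 176 CPM in LP-184, a rise of 1.53-fold (0.61 ± 0.03, limma adjusted p = 1.1e-18). Xpot, the exportin for transfer RNA, rose from 293 ± 6.03 to 354 ± 7.56 CPM (0.27 ± 0.03). Xpo4, which exports the translation factor eIF5A, fell by 0.75 ± 0.04, Xpo7 by 0.63 ± 0.04 and Xpo6, the exportin for actin, by 0.60 ± 0.06. Of the 4 falls, that of Xpo1 alone held with the length trend removed (-0.69), where Xpo4 did not pass (-0.050, limma adjusted p = 0.25) and Xpo6 (0.22) and Xpo7 (0.34) passed as higher.

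Per kb of exon, Xpo1 went from 44.8% ± 0.238 to 29.5% ± 0.364 of the summed level of the 6 exportins. Xpot went from 31.9% ± 0.260 to 42.8% ± 0.682 and Xpo5 from 11.4% ± 0.150 to 19.4% ± 0.646, so Xpot ranked above Xpo1 in each LP-184 library and below it in each DMSO library. The sum of the 6 genes was 1173 ± 15.3 CPM in DMSO and 996 ± 10.5 CPM in LP-184, and per kb of exon 152.5 ± 2.12 and 137 ± 1.14 CPM.

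**Figure D4:**
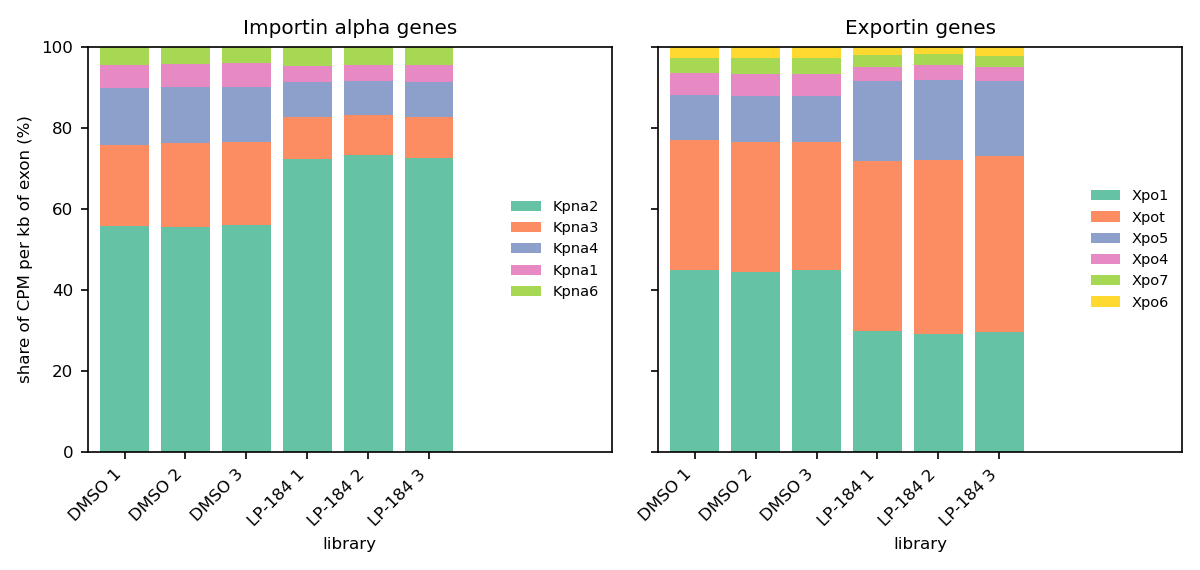
Share (y axis, percent) of each gene in the summed CPM per kb of exon of its family, in each library (x axis), for the importin alpha genes (left) and the exportins (right). The share of Kpna2 goes from 55.7% in DMSO to 72.8% in LP-184, and that of Xpo1 from 44.8% to 29.5%.

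Promoters of 4 of these genes are shown because their families split: Kpna2 rose and Kpna4 fell, Xpo5 rose and Xpo1 fell. Each is the 250 bases before the RefSeq start in GRCm38.p6, written 5′ to 3′ on the gene's strand. Capitals mark the CCAAT box (CCAAT), the cell cycle element known as CHR (TTTGAA or TTCGAA), the palindromic binding motif of the factor NRF1 (its letters are the capitals in the Xpo5 line) and the E-box (CACGTG), each searched on both strands. The regions are chr11:106999526-106999775 (reverse strand) for Kpna2, chr3:69127093-69127342 (reverse strand) for Kpna4, chr17:46202561-46202810 (forward strand) for Xpo5 and chr11:23255791-23256040 (forward strand) for Xpo1.
Kpna2: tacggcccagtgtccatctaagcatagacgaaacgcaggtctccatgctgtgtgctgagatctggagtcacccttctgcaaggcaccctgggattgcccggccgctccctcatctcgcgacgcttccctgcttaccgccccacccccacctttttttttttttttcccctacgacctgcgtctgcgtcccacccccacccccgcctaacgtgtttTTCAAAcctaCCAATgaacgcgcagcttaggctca
Kpna4: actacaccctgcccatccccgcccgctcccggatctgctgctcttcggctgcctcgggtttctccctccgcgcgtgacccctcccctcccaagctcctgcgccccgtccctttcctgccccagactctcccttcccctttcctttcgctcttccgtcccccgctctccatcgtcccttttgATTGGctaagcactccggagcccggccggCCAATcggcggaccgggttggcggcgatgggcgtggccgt
Xpo5: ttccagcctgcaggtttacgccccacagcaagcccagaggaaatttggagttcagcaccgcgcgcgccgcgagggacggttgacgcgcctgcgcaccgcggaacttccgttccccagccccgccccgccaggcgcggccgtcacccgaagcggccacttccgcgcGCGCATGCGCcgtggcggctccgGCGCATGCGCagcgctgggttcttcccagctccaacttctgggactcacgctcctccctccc
Xpo1: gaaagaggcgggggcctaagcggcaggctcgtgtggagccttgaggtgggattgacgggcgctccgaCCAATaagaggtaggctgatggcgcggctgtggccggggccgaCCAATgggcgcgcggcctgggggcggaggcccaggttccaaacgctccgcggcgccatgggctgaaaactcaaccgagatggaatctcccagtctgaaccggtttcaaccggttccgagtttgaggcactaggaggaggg

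Kpna2 has 1 CHR motif and 1 CCAAT box close together near its start, Kpna4 and Xpo1 have 2 CCAAT boxes each, and Xpo5 has 2 NRF1 motifs. Promoters were found by symbol for 37 of the 48 genes. The NRF1 motif was in 4 of the 37 (10.8%), those of Nup62, Xpo5, Nup50 and Nup107, against 1.92% of 8854 promoters of tested genes. All 4 rose, and so did 20 of the 37 genes. A CHR motif was in 10 of the 37, against 14.4% of all these promoters, of which 5 belonged to genes that rose and 4 to genes that fell. An E-box was in 7 (18.9%, against 10.2%), a CCAAT box in 19 (51.4%, against 41.3%) and a GC box (GGGCGG) in 25 (67.6%, against 66.3%). Also searched were the TATA box (TATAAA), in 5 (13.5%, against 7.5%), and the CRE (TGACGTCA), in 2 (5.4%, against 3.23%). The C/EBP-ATF element (TGATGNAA) was in 0, against 2.2%. None of these shares was tested. These motifs differ in length and can overlap, and a match says only that the letters are in the window.

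The Ran cycle drives these carriers. Of 14 genes of the Ran cycle and further carriers in the table, 7 rose and 6 fell, against 38.3% higher and 40% lower among all tested genes, with a median log2 fold change of -0.013 against -0.0060 for all tested genes. Ran itself was at 2319, 2303 and 2362 CPM in DMSO and at 1535, 1565 and 1551 CPM in LP-184, and fell by 33.4% (log2 fold change -0.59 ± 0.02, limma adjusted p = 9.8e-27). Ran spans 4.25 kb. The regulators on both sides of the cycle rose: Rangap1, which makes Ran hydrolyse GTP in the cytoplasm, by 0.59 ± 0.03, and Rcc1, which loads Ran with GTP on chromatin, by 0.37 ± 0.03. Cse1l, the exportin that returns importin alpha to the cytoplasm, fell from 378 ± 2.77 to 278 ± 1.52 CPM (-0.44 ± 0.02), and Nutf2, which returns Ran to the nucleus, fell by 0.22 ± 0.03. Ranbp3, a cofactor of Xpo1, rose by 0.61 ± 0.04, while Ranbp9 and Snupn, the adaptor that imports spliceosomal RNA particles, fell by 0.93 ± 0.06 and 0.74 ± 0.13. Ranbp1 and Ranbp10 were the genes among the 48 not described above. Ranbp1, which helps to take Ran off the carriers, rose by 0.09 ± 0.03 (limma adjusted p = 0.0091), and Ranbp10 by 0.21 ± 0.05. The call for Ranbp1 was lost without LP-184 replicate 2 (0.06, limma adjusted p = 0.079) and without the variance trend. With the length trend removed Ranbp1 passed as lower (-0.28, limma adjusted p = 4.4e-08).

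Of 8 pore subunits whose symbols fall outside the naming rule, 3 rose and 4 fell, near the 38.3% and 40% of all tested genes. Pom121, another transmembrane nucleoporin, rose from 81.7 ± 2.26 to 144 ± 7.64 CPM, a log2 change of 0.82 ± 0.04, close in size to that of Nup62. Rae1, the mRNA export partner of Nup98, rose by 0.47 ± 0.04 while Nup98 fell, and Aaas and Ahctf1, which starts pore assembly on chromatin, fell by 0.30 ± 0.08 and 0.22 ± 0.03. Ahctf1 passed as higher with the length trend removed (0.11). Of 25 bulk mRNA export genes, 9 rose and 9 fell, also near those shares. Nxf1, the main mRNA export receptor, was at 84.8, 86.6 and 96.4 CPM in DMSO and at 175, 168 and 171 CPM in LP-184, with no overlap, and rose 1.92-fold (0.94 ± 0.04, limma adjusted p = 1.5e-21). Poldip3 rose by 0.53 ± 0.04, and Thoc2 and Sarnp of the TREX mRNA export complex fell by 1.15 ± 0.05 and 0.68 ± 0.04. Thoc2, which spans 126 kb, no longer passed with the length trend removed (-0.043, limma adjusted p = 0.41).

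Fold changes of the pore and transport genes followed gene span, the distance from the first to the last annotated exon, as those of all genes did. Across the 47 genes with a span, Pearson's r of log2 fold change on log10 span was -0.53 (Spearman's rho -0.56), and over 11529 tested genes it was -0.48 (rho -0.49). These are descriptions across genes, which share the same 6 libraries and are not independent replicates. The relation was tighter among the 22 transport receptor genes with a span (r = -0.80, rho = -0.74) than among the 23 nucleoporin genes (r = -0.20, rho = -0.32), and the difference was not tested. Part of that gap rests on Nup43, since leaving it out gave r = -0.56 for the other 22 nucleoporin genes and -0.66 for the remaining 46 genes.

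Of the 9 genes under 20 kb, 8 rose and Nup43 fell, against 53.1% higher and 21.4% lower among all tested genes of such spans. Of the 9 from 20 to 40 kb, 6 rose, Ipo7 and Nup37 fell and Kpnb1 did not pass, against 44.4% higher and 32.6% lower. Of the 16 from 40 to 60 kb, 8 rose and 5 fell, against 26.0% higher and 51.7% lower. Of the 13 of 60 kb or more, Ipo8 and Nup214 rose, 10 fell and Nup205 did not pass, against 5.83% higher and 83.9% lower. Pore and transport genes have a median span of 48.0 kb, against 21.8 kb for all tested genes.

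**Figure D5:**
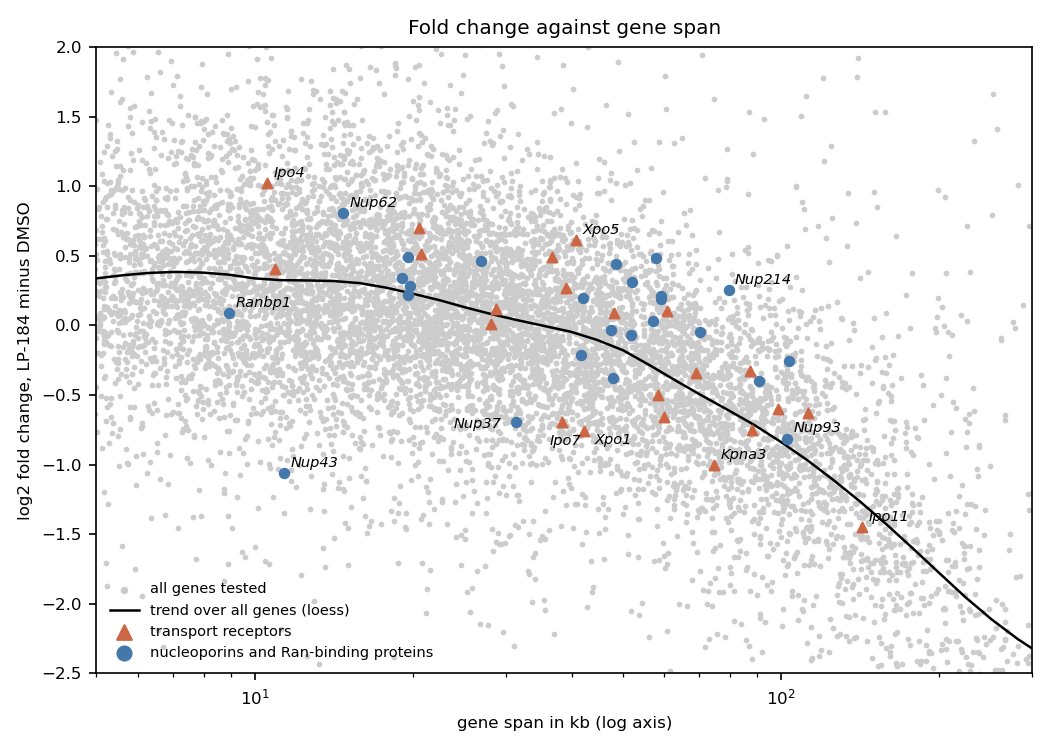
Log2 fold change (y axis) against gene span in kb (x axis, log scale) for transport receptor genes (triangles), nucleoporin and Ran-binding protein genes (circles) and all tested genes (grey, those outside the axis ranges not drawn), with the loess trend over all genes as a line. Nup43, at 11.4 kb and -1.06, lies far below the line, and Nup214, at 79.5 kb and 0.25, lies above it.

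After the trend of fold change on span over all genes was subtracted, 29 of the 47 genes were higher, 12 lower and 6 did not pass, against 35.3% higher and 39% lower (74.3% in all) among all genes in that fit. Higher and lower here mean above and below the trend for genes of like span, not above and below DMSO. Of the 18 falls, 10 still passed as lower: Ipo11, Ipo7, Kpna1, Kpna3, Kpna4, Nup153, Nup35, Nup37, Nup43 and Xpo1. Nup43 was then the lowest, at -1.39, followed by Nup37 at -0.73, Xpo1 at -0.69 and Ipo7 at -0.66, whereas Ipo11 was at -0.17. Nup93 and Xpo4 no longer passed, and 6 falls passed as higher than the trend: Nup98, Nup210, Tnpo1, Tnpo3, Xpo6 and Xpo7. The levels of these 6 genes were lower in LP-184 than in DMSO, but by less than the trend for their spans. Of the 24 rises with a span, 19 still passed as higher, 4 no longer passed (Kpna6, Nup42, Nup54 and Nup85) and Ranbp1 passed as lower than the trend. Of the 5 genes not called before, Nup155, Nup205, Ranbp2 and Tpr were higher and Kpnb1 lower. Nup214 (0.86), Nup188 (0.80), Ipo4 (0.69) and Xpo5 (0.67) were then the highest. Kpna2 was at 0.08 with the trend removed, against 0.41 before.

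In the authors' deposited table of their own comparison, 25 of the 48 genes were higher and 19 lower at an adjusted p under 0.05. The call was the same as here for 47 of the 48, and Nup155, with an adjusted p of 0.046 in the authors' deposited table, was the exception. By annotation, 16 genes share exon bases with another gene, and for 3 of them, Ipo4 (55.3%), Ranbp1 (16.9%) and Tnpo2 (10.6%, on the opposite strand), the share exceeds 10% of exon bases. No source used here states whether reads were counted by strand, so reads of overlapping genes on opposite strands cannot be told apart.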

How the data were processed

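RNA was measured in 6 libraries of 4T1 cells, 3 given DMSO and 3 given LP-184. The authors deposited log2 CPM for 12656 genes, and its Ctrl columns were read as DMSO replicates, matched by number. The authors also deposited log2 fold changes with a raw and an adjusted p-value for each gene, which were used only where named. Tools listed in the submitters' processing notes, without roles, include edgeR, STAR 2.7, Subread 2.0, featureCounts and fastp, and the builds include mm10. A gene with 0 reads carries -3.34 in every library of the authors' log2 table, as a prior of 2 reads scaled to library size gives, and with it removed 100% of values were whole reads (tolerance 0.01 reads). The prior understates the change of low genes.

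The 11931 genes that reached a log2 CPM of 0 in 3 or more libraries were fitted in R 4.3.3 with limma 3.58.1 (moderated variances with a trend on mean level, two-sided tests, Benjamini-Hochberg adjustment over all tested genes, threshold 0.05). The fit was tested on simulated counts. Spans and exon lengths came from GENCODE M21 of GRCm38 for 12205 genes, by symbol or RefSeq synonym. Kpna2rt had none. The members, role classes and gene lists were chosen with earlier results of these data known. Every member is named or counted. Full values go to the 3 called members of each role with the largest change, the most abundant one and 8 set genes. From the companion lists the text gives 7 set genes and the 2 largest rises and falls of each list. Sec13, Seh1l, Syne3, Lmna and Lmnb1 were added after their values were seen.

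Same-numbered libraries showed no shared deviation, so the main fit did not pair them. Pairs of replicates differed by more than counting noise (2.21 to 2.49 times), so none was a repeat deposit. Alternatives were 2 scalings, 2 pseudocounts (log2(CPM + 1) and log2(CPM + 0.1)), no filter, a stricter filter, a robust fit, a fit without the variance trend, each library left out, a replicate block, voom on the recovered reads, a threshold of 0.01 and removal of the length trend (loess, span parameter 0.3).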

Additional observations from a re-analysis of the deposited data

How the results depend on the processing

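Over 18 alternatives, 28 of the 48 member genes kept their direction and their side of the threshold in every one that could be run for them, and 38 did so when removal of the length trend was left aside. The members called numbered 21 to 29 as higher and 12 to 19 as lower. Of the extremes, 21 came from the fit without the variance trend, and 29 and 12 from removal of the length trend. Members lower by 2-fold or more numbered 3, with 2 under log2(CPM + 1) and 1 with median centring or with the length trend removed. Leaving out 1 library at a time gave 23 to 25 rises, 18 to 19 falls and 2 to 3 falls of 2-fold or more. With voom on the recovered reads, of which 100% were whole, 25 members rose and 19 fell, among 4595 and 4779 of all genes. Removal of the length trend turned the sign of Kpnb1 (-0.074), Nup155 (0.14), Nup205 (0.45), Nup210 (0.62), Nup85 (-0.017), Nup93 (0.054), Nup98 (0.33), Ranbp1 (-0.28), Ranbp2 (0.11), Tnpo1 (0.37), Tnpo3 (0.14), Xpo6 (0.22), Xpo7 (0.34) and, outside the members, Ahctf1 (0.11). Median centring turned that of Nup155 (0.019), Nup205 (0.042) and Ranbp2 (0.057). Kpnb1 lay between -0.0030 and 0.026 when single libraries were left out. The cause of these turns was not tested.

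No shared deviation of same-numbered libraries was seen, with correlations of -0.0105, -0.0177 and -0.00648. These values cannot show whether such libraries were handled together. The fit with the replicate block called 25 members higher and 18 lower, among 4550 and 4741 of all genes. Depth limits Kpna2rt and Nup42 most, with 4.36 and 11.5 CPM in DMSO.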

Other observations

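Genes of the nuclear envelope and lamina, the structures in which the pores sit, also moved both ways. Of 24 such genes in the table, 10 rose and 9 fell, against 38.3% higher and 40% lower among all tested genes. Lmnb2, which encodes lamin B2, had 35.9 ± 1.78 CPM (mean and SD of 3 libraries) in DMSO and 87.7 ± 2.51 CPM in LP-184 and rose by 1.29 ± 0.05 on the log2 scale (with its standard error), while the genes of lamin B1 (Lmnb1, -0.41 ± 0.03) and lamin A (Lmna, -0.33 ± 0.02) fell. Chmp7, which takes part in sealing the envelope and in removing faulty pores, rose by 1.08 ± 0.05. Syne1 and Syne2, giant linkers between the envelope and the cytoskeleton that span 531 and 293 kb, had log2 changes of -2.84 ± 0.11 and -2.40 ± 0.12, both falls, and were at -0.12 and -0.10 with the length trend removed. Their relative Syne3, which spans 79.9 kb, fell by 1.86 ± 0.06 and still passed as a fall with that trend removed (-1.25). Lmnb1, Lmna and Syne3 lie outside the rule for named genes and were chosen after their values were seen.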
